A study of Arabidopsis thaliana with 16 samples.

Results

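The ethylene response of Col-0 shoots was described from the deposited table that sets shoots treated with ethylene against shoots kept in air. The shoots came from 3-day-old etiolated seedlings of wild type *Arabidopsis thaliana* (Col-0). In the ethylene group, seedlings grown in hydrocarbon-free air were exposed for 4 h to the same air with 10 ppm ethylene gas. In the air group they stayed in hydrocarbon-free air for those 4 h. All seedlings were grown in the dark, and the groups carried no transgene or mutation. Each group had 2 libraries of poly(A) RNA, so these groups are 4 of the 16 libraries of the series, which also holds roots and the *cbp20* mutant. The table gives 1 pooled FPKM value for each group (fragments per kilobase of transcript, scaled to the mapped fragments), so the levels carry no SD and no test was made from them. Of 35814 loci in the table, 19984 had the status OK, a gene name and at least 1 FPKM in ethylene or air. Of these loci 2159 bore a name repeated at other loci, and the other 17825 genes were used.

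A gene is called up regulated where its FPKM in ethylene was at least 1.5-fold that in air, and down regulated where it was at least 1.5-fold lower. These calls describe the pooled libraries. How far the 2 libraries of a group differed cannot be told from the table. The same exposure was measured in shoots of *cbp20*, a mutant in the smaller protein of the cap-binding complex in the nucleus, from separate libraries in a table of its own. Calls in *cbp20* shoots and in Col-0 roots are set beside those of Col-0 shoots, and differences between tables were not tested.

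Ethylene is a gaseous hormone that is bound by receptors in the endoplasmic reticulum. Without ethylene the receptors keep the kinase CTR1 active, and CTR1 holds back EIN2. With ethylene EIN2 signals to the nucleus, where EIN3 and EIL1 are stabilised and switch on response genes such as *ERF1*, *EBF2* and the EDF genes. In dark-grown seedlings the response is known as the triple response, with a short thick hypocotyl, a tight apical hook and a short root.

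Ethylene up regulated 2743 of 17825 genes (15.4%) and down regulated 3873 (21.7%) in Col-0 shoots. At least a 2-fold change was found for 1436 up regulated and 2379 down regulated genes, and at least a 4-fold change for 517 and 995. The lower group was listed at 0 for 159 up regulated and 311 down regulated genes. The median log2 ratio of ethylene to air over all 17825 genes was -0.01. In *cbp20* shoots 2780 genes (15.7%) were up regulated and 3778 (21.4%) down regulated. Among 16967 genes used in both shoot tables, 1019 (6.01%) were up regulated in both and 1964 (11.6%) down regulated in both. The shared genes were 37.1% of the up regulated genes of Col-0 shoots and 36.7% of those of *cbp20* shoots. For down regulated genes the shares were 50.7% in Col-0 shoots and 52.0% in *cbp20* shoots. Opposite calls in *cbp20* shoots were found for 344 genes up regulated in Col-0 shoots (12.5%) and for 333 down regulated there (8.60%).

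How often a call in Col-0 shoots came back in *cbp20* shoots moved with the level of the gene. Among genes with a mean under 2 FPKM over the 4 shoot groups, 23.6% of those up regulated and 31.3% of those down regulated had the same call in *cbp20* shoots. Among genes with a mean of at least 100 FPKM the shares were 67.5% and 67.3%. Opposite calls made up 17.9% of the up regulated genes in the lowest of these levels and 3.97% in the highest. Low genes were also called more often, with 33.3% up and 42.0% down under 2 FPKM against 9.01% up and 15.2% down from 100 FPKM. Counts of members with the same call in both shoot tables are therefore given beside most groups of genes below. A call given without such a count is that of Col-0 shoots alone. Counts of members are to be read beside the shares over all genes used, 15.4% up and 21.7% down.

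**Figure D1:**
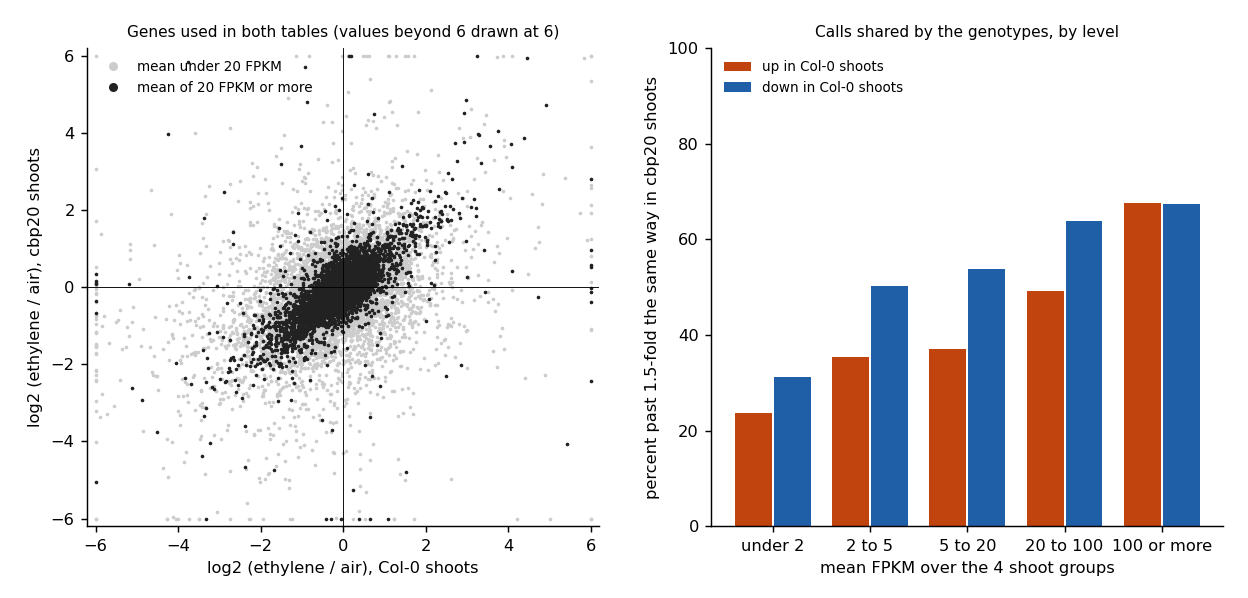
Log2 ratio of ethylene to air for each gene in Col-0 shoots and in *cbp20* shoots. The share of Col-0 shoot calls found the same way in *cbp20* shoots went from 23.6% (up regulated) and 31.3% (down regulated) under 2 FPKM to 67.5% and 67.3% from 100 FPKM.

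The labelled tissue was checked with markers. Of 6 shoot markers at a single locus (*STM*, *CUC2*, *CUC3*, *AS1*, *CLV3* and *GPRI1*) the summed level in Col-0 shoots was 54.7 FPKM in ethylene and 76.4 FPKM in air, against 3.38 FPKM in ethylene and 7.65 FPKM in air in the root table. Of these markers 4 were down regulated in Col-0 shoots and 1 in *cbp20* shoots, while the leaf gene *AS1* had 45.5 FPKM in ethylene and 42.0 FPKM in air and the meristem gene *STM* had 4.21 FPKM in ethylene and 4.92 FPKM in air. *CLV3* was listed at 0 in ethylene and had 1.83 FPKM in air. Of 13 root markers the sum was 319 FPKM in ethylene and 279.6 FPKM in air in shoots, of which *CASP1* gave 238 FPKM in ethylene against 183 FPKM in air, while in roots it was 1629.6 FPKM in ethylene and 1031 FPKM in air. *PLT1* and *PLT2*, which define the root meristem, were listed at 0 in ethylene in shoots, and in air *PLT1* had 0.0358 FPKM and *PLT2* was listed at 0. The root hair expansin gene *EXPA7* had 5.46 FPKM in ethylene and 5.73 FPKM in air in shoots. A part of root tissue in the gene changes was not tested. Shoots are a bulk tissue, so fewer cells of a type and less RNA per cell cannot be told apart in any value below. The labels place the first library of each shoot group on lane 5 and the second on lane 6 of the sequencer.

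Genes of ethylene perception and signalling were up regulated more often than they were down regulated, with 9 up and 1 down of 19 genes used and a median log2 ratio of 0.31. All 10 had the same call in *cbp20* shoots. Among the 5 receptors, *ETR2* had 65.2 FPKM in ethylene and 18.4 FPKM in air. *ERS1* had 129 FPKM in ethylene and 52.0 FPKM in air, and *ERS2* had 31.9 FPKM in ethylene and 11.5 FPKM in air. These 3 receptor genes were 3.54-fold, 2.49-fold and 2.78-fold higher in ethylene. *ETR1*, at a locus joined with a neighbour, had 17.9 FPKM in ethylene and 16.0 FPKM in air, and *EIN4* had 13.1 FPKM in ethylene and 12.3 FPKM in air, so 3 of the 5 receptors were called. The levels in *cbp20* shoots were 61.7 FPKM in ethylene and 17.4 FPKM in air for *ETR2* and 121 FPKM in ethylene and 59.6 FPKM in air for *ERS1*. *RTE1*, which encodes a receptor partner that promotes ETR1 function, had 44.6 FPKM in ethylene against 8.61 FPKM in air. The negative kinase gene *CTR1* had 77.8 FPKM in ethylene against 24.9 FPKM in air, and its target *EIN2* had 110.4 FPKM in ethylene against 50.4 FPKM in air. *EIN3* and *EIL1*, which encode the main transcription factors, had 78.4 FPKM in ethylene and 78.5 FPKM in air for *EIN3* and 47.6 FPKM in ethylene and 44.7 FPKM in air for *EIL1*, both under the fold. The minor family member *EIL2* was up regulated at a low level, with 2.74 FPKM in ethylene against 1.09 FPKM in air. Of the F-box genes whose products degrade EIN3, *EBF2* was up regulated with 178 FPKM in ethylene against 71.8 FPKM in air, and *EBF1* had 81.4 FPKM in ethylene and 72.6 FPKM in air. *ETP1*, an F-box gene for EIN2 turnover, had 17.8 FPKM in ethylene against 9.73 FPKM in air, and its homologue *ETP2* had the one down call of the group, with 1.98 FPKM in ethylene against 3.12 FPKM in air. The group thus holds positive and negative parts of the pathway among its up regulated genes.

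The last step of ethylene synthesis was up regulated, and most of the step before it was not. ACC synthases make the precursor ACC, and ACC oxidases convert it to ethylene. All 3 ACC oxidase genes used were up regulated in both shoot tables. *EFE* (AT1G05010) had 1289 FPKM in ethylene and 128 FPKM in air, and in *cbp20* shoots it had 734 FPKM in ethylene and 78.8 FPKM in air. AT1G77330, another gene of this oxygenase family, had 628 FPKM in ethylene and 172 FPKM in air, and *ACO1* had 48.9 FPKM in ethylene and 17.0 FPKM in air. Of 5 ACC synthase genes used, 4 were down regulated, among them *ACS6* with 10.7 FPKM in ethylene against 36.7 FPKM in air and *ACS11* with 1.36 FPKM in ethylene against 3.44 FPKM in air. *ACS5* had 22.6 FPKM in ethylene against 8.80 FPKM in air, while in *cbp20* shoots it had 4.43 FPKM in ethylene and 4.78 FPKM in air, under the fold. Of the 4 genes of S-adenosylmethionine synthetases, which make the substrate of ACC synthases, *SAM-2* was up regulated with 919 FPKM in ethylene against 504 FPKM in air.

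**Figure D2:**
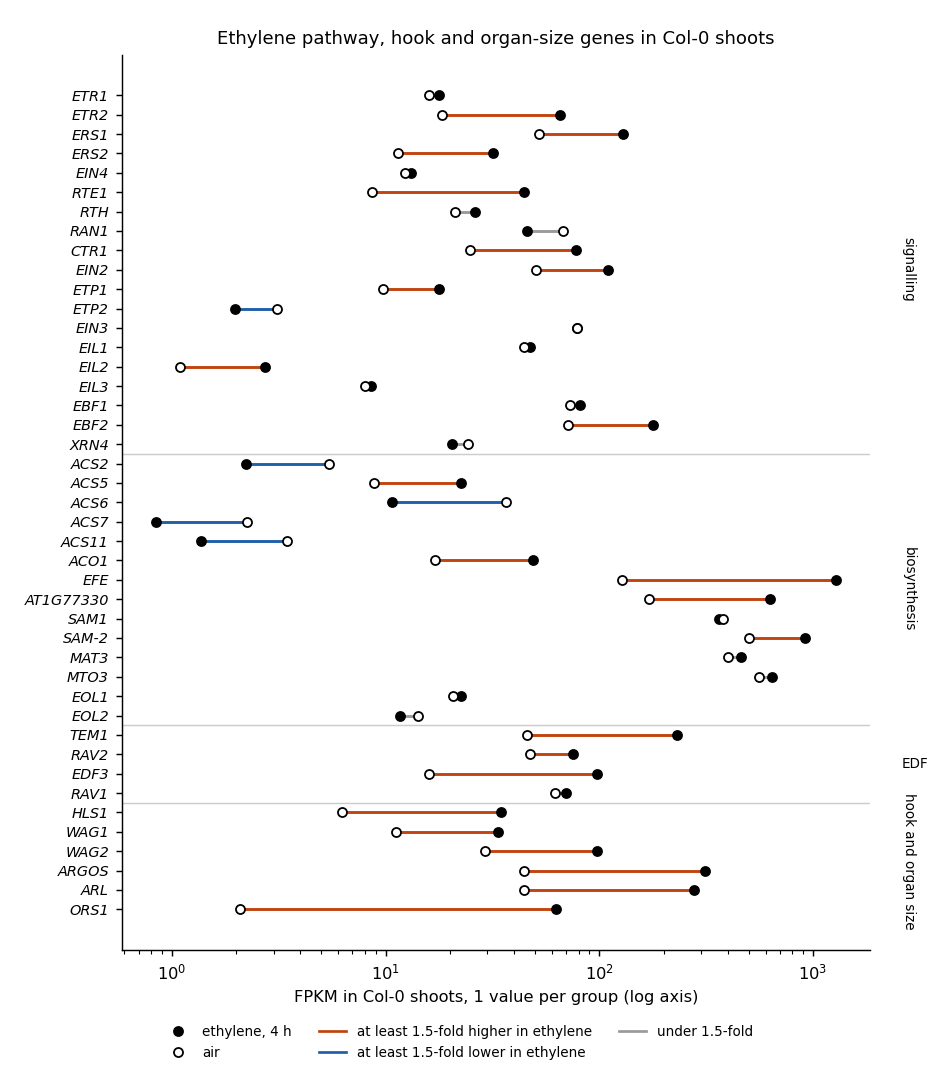
FPKM in ethylene and in air for genes of ethylene signalling, synthesis and response in Col-0 shoots, on a log axis, 1 pooled value per group. *ETR2*, *ERS1*, *ERS2*, *CTR1*, *EIN2*, *EBF2* and the ACC oxidase genes lie higher in ethylene, while *EIN3* had 78.4 FPKM in ethylene and 78.5 FPKM in air.

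Among the ethylene response factors, which bind GCC boxes and act below EIN3, 9 of 21 genes used were up regulated and 6 down regulated, and 8 of the 9 and 4 of the 6 had the same call in *cbp20* shoots. *ERF2* had 8.43 FPKM in ethylene and 0.790 FPKM in air. *ERF1* had 3.64 FPKM in ethylene and 0.455 FPKM in air. *ERF9*, a repressor of defence genes, had 16.8 FPKM in ethylene against 2.67 FPKM in air, and *RAP2.2*, a factor of low oxygen responses, was the most abundant of the up regulated members with 400.4 FPKM in ethylene against 171 FPKM in air. Others went down, and these are genes known for fast induction by stress. *ERF104* had 6.45 FPKM in ethylene against 39.9 FPKM in air, and AT5G51190, a close relative, had 8.68 FPKM in ethylene against 42.3 FPKM in air. *ERF4*, which encodes a repressor, had 22.2 FPKM in ethylene against 66.4 FPKM in air. Of the 4 EDF genes, which encode DNA-binding factors known as targets of EIN3, 3 were up regulated in both shoot tables. *TEM1* had 232 FPKM in ethylene and 45.8 FPKM in air, *EDF3* had 97.6 FPKM in ethylene and 16.0 FPKM in air, and *RAV2* had 75.0 FPKM in ethylene and 47.5 FPKM in air. *RAV1* had 69.7 FPKM in ethylene and 62.1 FPKM in air.

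Windows of 250 bases before the annotated gene start are shown for 3 up regulated genes of the pathway, which were picked because they hold letters that EIN3 is known to bind. The motif was searched as ATGAACCT, ATGAATCT, ATGTACCT, ATGTATCT, ACGAACCT, ACGAATCT, ACGTACCT and ACGTATCT on both strands. Capitals mark matches to these letters or to the G-box CACGTG. The bases and coordinates are from the RefSeq annotation of assembly TAIR10.1, and each line reads toward the gene.
*ERS1*, chr2:17087327-17087576, - strand: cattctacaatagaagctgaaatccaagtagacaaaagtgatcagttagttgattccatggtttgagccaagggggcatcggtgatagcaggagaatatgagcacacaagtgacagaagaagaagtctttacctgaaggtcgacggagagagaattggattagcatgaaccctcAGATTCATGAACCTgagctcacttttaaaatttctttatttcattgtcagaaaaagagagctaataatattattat
*ERF2*, chr5:19172957-19173206, - strand: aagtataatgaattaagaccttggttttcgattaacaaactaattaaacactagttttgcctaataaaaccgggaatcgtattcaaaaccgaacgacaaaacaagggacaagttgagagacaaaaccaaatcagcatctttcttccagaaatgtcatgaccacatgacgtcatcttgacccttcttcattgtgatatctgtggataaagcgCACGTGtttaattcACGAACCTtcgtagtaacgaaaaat
*EDF3*, chr3:9396022-9396271, + strand: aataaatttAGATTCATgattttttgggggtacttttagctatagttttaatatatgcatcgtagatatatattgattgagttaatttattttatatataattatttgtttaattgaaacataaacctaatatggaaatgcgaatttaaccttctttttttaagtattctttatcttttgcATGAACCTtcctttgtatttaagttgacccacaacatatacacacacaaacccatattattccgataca
They were the 3 with a match among the 21 up regulated genes of the signalling, response factor and EDF lists, and the windows of the other 18, those of *ETR2*, *CTR1*, *EIN2*, *EBF2* and *ERF1* among them, held none of these spellings. *ERS1* held 2 overlapping matches on opposite strands, *EDF3* held 2 matches apart from each other, and *ERF2* held 1 match and a G-box. A match of letters is a description and not a bound site. In 250 bases, 5.88% of all 16236 genes scanned held at least 1 of these 8 spellings, against 6.60% of 939 genes up regulated in both shoot tables and 6.81% of 1822 genes down regulated in both. In 1000 bases the shares were 24.6% of all genes, 26.5% of the up regulated genes and 23.9% of the down regulated genes. The GCC box GCCGCC was held in 1000 bases by 8.62% of all genes, 8.31% of up regulated genes and 7.52% of down regulated genes.

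Genes of the apical hook and of organ size had a median log2 ratio of 2.55, with all 6 up regulated in Col-0 shoots, 5 of them also in *cbp20* shoots. *HLS1*, an acetyltransferase gene needed for the hook, had 34.5 FPKM in ethylene and 6.26 FPKM in air. Of the kinase genes that act on auxin transport in the hook, *WAG1* had 33.5 FPKM in ethylene and 11.2 FPKM in air and *WAG2* had 98.1 FPKM in ethylene and 29.3 FPKM in air. *WAG1* was under the fold in *cbp20* shoots, with 25.5 FPKM in ethylene and 19.6 FPKM in air. The organ size genes encode small membrane proteins that lower ethylene sensitivity. *ARGOS* had 311 FPKM in ethylene and 44.7 FPKM in air, and *ARL* had 278 FPKM in ethylene and 44.5 FPKM in air. *ORS1* (AT2G41230), which the annotation calls ORGAN SIZE-like, had 62.8 FPKM in ethylene against 2.08 FPKM in air, a 30.1-fold difference, and 55.9 FPKM in ethylene against 2.13 FPKM in air in *cbp20* shoots. In Col-0 roots, where 15.8% of 17508 genes used were up and 15.4% down regulated, the 3 organ size genes were also up regulated, while *HLS1* had 1.92 FPKM in ethylene and 2.41 FPKM in air there.

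Genes of auxin synthesis and transport were called in both directions. Of 20 genes of auxin synthesis and transport used, 5 were up regulated and 4 down regulated, 3 and 3 also in *cbp20* shoots, with a median log2 ratio of 0.02. The shares were 25% up and 20% down, beside 15.4% and 21.7% over all genes used. *PID*, a kinase gene that steers PIN efflux carriers, had 27.7 FPKM in ethylene against 6.25 FPKM in air, and it was up regulated in *cbp20* shoots and Col-0 roots too. *YUC9*, which encodes a flavin monooxygenase of auxin synthesis, had 10.9 FPKM in ethylene, 9.10-fold its value in air, and *YUC3* had 8.91 FPKM in ethylene against 2.94 FPKM in air. *YUC2* and *YUC8* of the same family were down regulated. Of 9 auxin synthesis genes used, 4 were up and 2 down regulated, 2 and 1 of them also in *cbp20* shoots. Of the carriers, *LAX2* had 7.60 FPKM in ethylene against 21.7 FPKM in air. *AUX1*, *PIN3* and *PIN7*, the more abundant carrier genes, were under the fold, with *AUX1* at 110.0 FPKM in ethylene and 112 FPKM in air. Among 21 Aux/IAA repressor genes 6 were up and 2 down regulated, 4 and 1 of them also in *cbp20* shoots. *IAA20* had 137 FPKM in ethylene against 37.6 FPKM in air, and *IAA6* had 25.5 FPKM in ethylene against 61.0 FPKM in air. Of 71 SAUR genes, which are fast targets of auxin and act in cell elongation, 26 were up and 24 down regulated, and 16 and 18 of these had the same call in *cbp20* shoots. GH3 enzymes conjugate auxin to amino acids, and 5 of 11 of their genes were down regulated and 1 up, 4 and 1 also in *cbp20* shoots. *GH3.17* had 19.9 FPKM in ethylene against 56.2 FPKM in air.

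Of 14 light signalling genes 2 were up and 7 down regulated, 1 and 5 also in *cbp20* shoots, with a median log2 ratio of -0.68. *PIF3*, which encodes a factor that keeps seedlings etiolated, had 167 FPKM in ethylene and 60.6 FPKM in air, and in *cbp20* shoots 163 FPKM in ethylene and 68.3 FPKM in air. *PIF4*, of the same family, had 7.56 FPKM in ethylene against 25.3 FPKM in air. *PIL1* was up regulated in Col-0 shoots alone of the 2 shoot tables, with 52.5 FPKM in ethylene against 11.9 FPKM in air. A group of 6 genes holds *COP1*, *SPA1*, *HY5* and *HYH*, which act in the switch to light growth, and the GLK factors of chloroplast development. Of these 5 were down regulated, and 3 of the 5 also in *cbp20* shoots. *HY5* had 21.6 FPKM in ethylene against 57.9 FPKM in air in Col-0 shoots and 68.9 FPKM in ethylene against 78.2 FPKM in air in *cbp20* shoots. *GLK2* had 8.17 FPKM in ethylene against 57.9 FPKM in air in Col-0 shoots and 59.1 FPKM in ethylene against 78.6 FPKM in air in *cbp20* shoots. *GPRI1*, the annotation's symbol for *GLK1*, had 4.18 FPKM in ethylene against 25.4 FPKM in air and was called in both shoot tables. *SPA1*, which encodes a partner of COP1, had 5.33 FPKM in ethylene against 19.3 FPKM in air. The call thus differed between the genotypes for *HY5* and *GLK2*, and this difference was not tested.

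Genes of the light-harvesting antenna were down regulated. Antenna proteins bind chlorophyll and pass light energy to the photosystems, and in the dark their transcripts are low relative to light-grown leaves. Of 16 genes used, 11 were down regulated and none up regulated, with a median log2 ratio of -1.02. Their summed level was 12335 FPKM in ethylene and 19289.9 FPKM in air. *LHCB2.3* had 23.7 FPKM in ethylene against 306 FPKM in air, a 12.9-fold difference. *LHB1B1* had 34.6 FPKM in ethylene against 330.3 FPKM in air, and *LHCA1* had 216 FPKM in ethylene against 654 FPKM in air. *CAB1*, the most abundant member, had 6031 FPKM in ethylene and 6192 FPKM in air, under the fold. Of the 6 shoot markers 4 were down regulated in Col-0 shoots too (*CUC2*, *CUC3*, *CLV3* and *GPRI1*), while *AS1* and *STM* were under the fold. *GPRI1* is also counted among the light signalling genes above. The part of shoot markers in the antenna values was not tested. Of the 11 genes 5 were also down regulated in *cbp20* shoots, where the median log2 ratio was -0.42. *LHCB3* is an example of the others, with 573 FPKM in ethylene against 1341 FPKM in air in Col-0 shoots and 1284 FPKM in ethylene against 1772 FPKM in air in *cbp20* shoots. Of 23 photosystem subunit genes of the nucleus 7 were down and 1 up regulated. Of the 7, 3 were also down in *cbp20* shoots, and the 1 up call was not shared. *ELIP1* and *ELIP2*, whose products protect against excess light, were down regulated in both shoot tables, with 15.0 FPKM in ethylene against 146 FPKM in air for *ELIP1* and 6.18 FPKM in ethylene against 49.2 FPKM in air for *ELIP2*.

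Chlorophyll synthesis did not move as 1 group, since 5 of 23 genes were down regulated, none was up regulated and the median log2 ratio was 0.03. The down share of 21.7% was that of all genes used. *HEMA1*, which encodes the reductase that starts tetrapyrrole synthesis, had 59.3 FPKM in ethylene and 124 FPKM in air. *GUN4*, an activator gene of the magnesium chelatase, had 65.5 FPKM in ethylene and 149 FPKM in air, and *GUN5*, a subunit gene of the same enzyme, had 76.8 FPKM in ethylene and 141 FPKM in air. *CRD1*, a cyclase component gene, had 292 FPKM in ethylene and 520.4 FPKM in air, and *CH1*, which makes chlorophyll b, had 14.6 FPKM in ethylene and 44.6 FPKM in air. *HEMA1*, *GUN4*, *GUN5* and *CH1* were down regulated in *cbp20* shoots too. The genes of the light-dependent protochlorophyllide reductases, whose products accumulate in the dark, were the most abundant members and under the fold, with 1303 FPKM in ethylene and 1162 FPKM in air for *PORA* and 1774 FPKM in ethylene and 1225 FPKM in air for *PORB*. Of 12 carotenoid synthesis genes 3 (25%) were down regulated, of which 1 also in *cbp20* shoots, a share near that of all genes.

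Among genes of wall loosening, expansins were mostly down regulated and other families were divided. Expansins loosen the wall during growth. Of 22 expansin genes used, 14 were down and 2 up regulated, 9 and 2 of them also in *cbp20* shoots, with a median log2 ratio of -0.88. *EXPA8* had 123 FPKM in ethylene against 321 FPKM in air, *EXPB1* had 10.7 FPKM in ethylene against 48.3 FPKM in air, and *EXPA5* had 4.86 FPKM in ethylene against 27.3 FPKM in air. The 2 up regulated members were *EXPA12*, with 45.3 FPKM in ethylene against 2.07 FPKM in air, and *EXPA9*, with 294 FPKM in ethylene against 181 FPKM in air. XTH enzymes cut and rejoin xyloglucan. Of 23 of their genes 6 were up and 5 down regulated, 6 and 4 also in *cbp20* shoots. *XTH15* had 1922 FPKM in ethylene against 873 FPKM in air, *XTH31* had 637 FPKM in ethylene against 209 FPKM in air, and *XTH7* had 362 FPKM in ethylene against 114 FPKM in air, whereas *XTH24* had 297 FPKM in ethylene against 523 FPKM in air. Of 16 GH9 endoglucanase genes 4 were up regulated, all of them also in *cbp20* shoots, and 2 were down regulated, 1 of them also in *cbp20* shoots. *GH9B12* was the member with the largest ratio, at 49.3 FPKM in ethylene against 4.46 FPKM in air in Col-0 shoots and 24.6 FPKM in ethylene against 1.12 FPKM in air in *cbp20* shoots. Cellulose synthase genes were nearly all under the fold, with 1 of 8 up regulated, a call not shared with *cbp20* shoots.

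Arabinogalactan proteins are heavily glycosylated proteins of the wall and plasma membrane. Of 47 of their genes used, 23 were down and 3 up regulated, and 19 of the 23 were also down in *cbp20* shoots. The summed level was 7679 FPKM in ethylene and 14406 FPKM in air. *AGP21* had 786 FPKM in ethylene against 2183 FPKM in air, *AGP4* had 948 FPKM in ethylene against 1888 FPKM in air, and *FLA9* had 501 FPKM in ethylene against 1235 FPKM in air. *AGP22* had 84.5 FPKM in ethylene against 513 FPKM in air, a 6.07-fold difference, and 84.4 FPKM in ethylene against 555 FPKM in air in *cbp20* shoots. Class III peroxidases, which can stiffen walls or make reactive oxygen, had 23 down and 5 up regulated genes of 48, with 14 and 4 also called in *cbp20* shoots. AT5G19890 was up regulated, with 127 FPKM in ethylene against 13.1 FPKM in air, and AT5G14130 was down regulated, with 0.634 FPKM in ethylene against 12.0 FPKM in air. In Col-0 roots the peroxidase counts lay the other way, at 15 up and 8 down of 47. Laccases act in lignin formation, and 7 of 13 of their genes were down and 1 up regulated. Of the 7, 5 were also down in *cbp20* shoots, and the up call was not shared. *LAC7* had 8.67 FPKM in ethylene against 39.9 FPKM in air. Pectin methylesterases and their inhibitors set the charge of pectin and went both ways, with 15 up and 17 down of 50. Of these calls 8 up and 8 down were shared with *cbp20* shoots. The inhibitor family gene AT1G62770 had 697 FPKM in ethylene against 172 FPKM in air. Pectin lyases and polygalacturonases cut pectin, and 20 of 50 of their genes were down and 7 up regulated, 10 and 4 also in *cbp20* shoots. AT1G48100 of this family was listed at 0 in ethylene and had 18.3 FPKM in air.

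Lipid transfer proteins and the related 2S albumin family had 32 down and 10 up regulated genes of 53, with a median log2 ratio of -0.99, and 27 of the 32 were also down in *cbp20* shoots. *LTPG1*, which encodes an anchored lipid transfer protein of cuticular wax export, had 417 FPKM in ethylene against 839 FPKM in air. Among the up regulated members *LTP5* had 758 FPKM in ethylene against 296 FPKM in air and *EARLI1* had 131 FPKM in ethylene against 39.5 FPKM in air. Of 46 GDSL lipase genes 24 were down and 4 up regulated, 14 and 1 also in *cbp20* shoots. Genes of wax, epidermis and fatty alcohols were not counted as a list, and single ones lay in both directions. *KCS6*, an elongase gene of wax synthesis, had 301 FPKM in ethylene against 648 FPKM in air, and *PDF1*, a marker gene of the epidermis, had 150.3 FPKM in ethylene against 535 FPKM in air. *FAR1* (AT5G22500), a fatty acid reductase gene of primary alcohol synthesis, had 569.6 FPKM in ethylene against 265 FPKM in air.

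**Figure D3:**
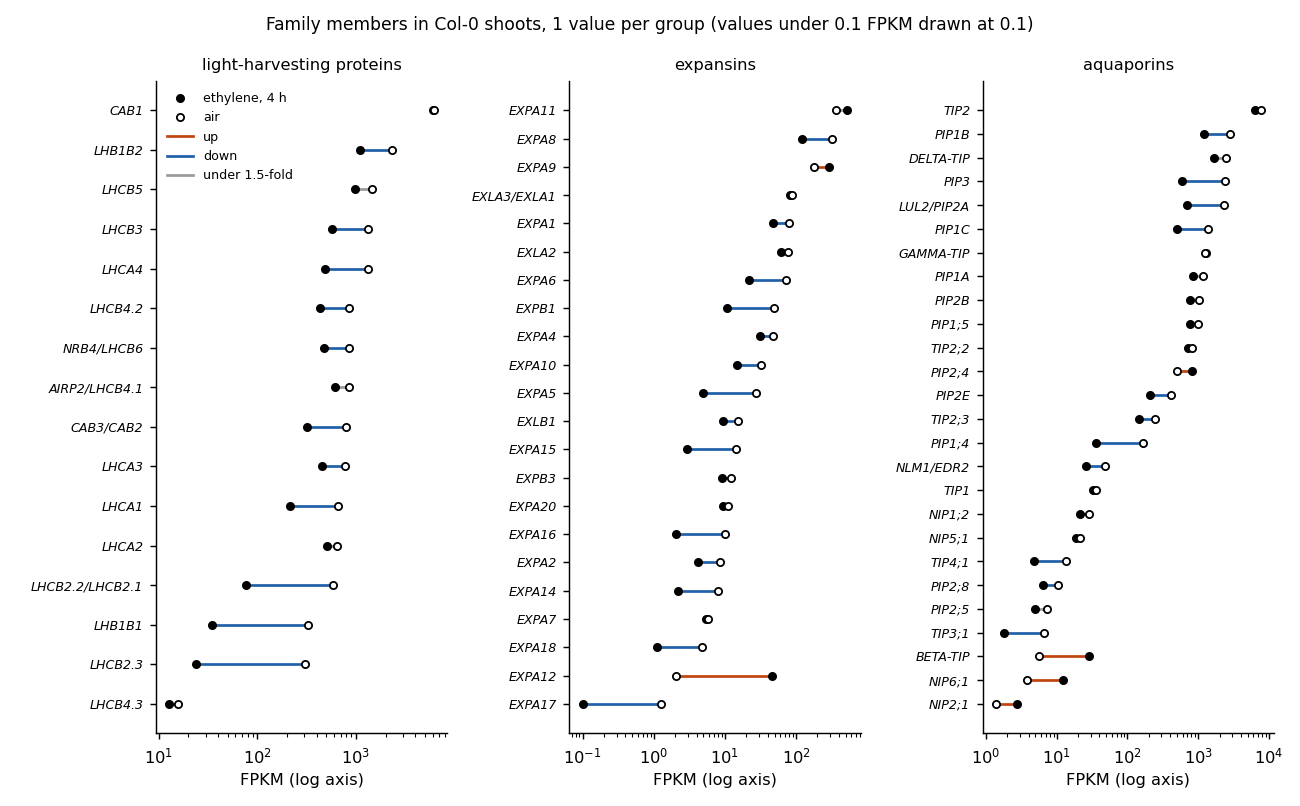
FPKM in ethylene and in air in Col-0 shoots for the antenna genes, expansins and aquaporins used, on log axes, 1 pooled value per group, with values under 0.1 FPKM drawn at 0.1. Down regulated were 11 of 16 antenna genes, 14 of 22 expansins and 11 of 26 aquaporins, while *EXPA12* had 45.3 FPKM in ethylene and 2.07 FPKM in air.

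Aquaporins carry water across membranes. Of 26 genes used, 11 were down and 4 up regulated, 9 and 4 also in *cbp20* shoots. Their summed level was 16755 FPKM in ethylene and 25709 FPKM in air. *PIP3* had 593 FPKM in ethylene and 2353 FPKM in air, and in *cbp20* shoots 482 FPKM in ethylene and 1731 FPKM in air. *PIP1B* had 1226 FPKM in ethylene and 2805 FPKM in air, and *PIP1C* had 503 FPKM in ethylene and 1358 FPKM in air. *PIP2;4* went the other way, with 808 FPKM in ethylene against 493 FPKM in air, and the vacuolar aquaporin gene *BETA-TIP* had 28.5 FPKM in ethylene against 5.67 FPKM in air.

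Gibberellin, brassinosteroid and cytokinin genes were called in both directions, and most were under the fold. Their down shares were 31.6%, 11.1% and 25%, beside 21.7% over all genes used. Their up shares were 10.5%, 27.8% and 12.5%, beside 15.4%. Of 19 gibberellin genes 6 were down and 2 up regulated, 5 and 1 also in *cbp20* shoots. *GA20OX1*, an enzyme gene of active gibberellin synthesis, had 7.47 FPKM in ethylene against 12.6 FPKM in air, and *GA2OX8*, an inactivating oxidase gene, had 9.61 FPKM in ethylene against 2.37 FPKM in air. Of the 4 inactivating oxidase genes used, *GA2OX8* was the 1 up regulated, while *ATGA2OX1* and *GA2OX2* were down regulated. Each of these calls was the same in *cbp20* shoots. Of the 5 DELLA genes, whose products restrain growth, the more abundant pair was under the fold, with *GAI* at 33.6 FPKM in ethylene and 35.7 FPKM in air and *RGA1* at 67.0 FPKM in ethylene and 69.1 FPKM in air. *RGL1*, *RGL2* and *RGL3* were down regulated, with *RGL1* at 18.9 FPKM in ethylene against 29.0 FPKM in air, *RGL2* at 1.99 FPKM in ethylene against 3.52 FPKM in air and *RGL3* at 3.54 FPKM in ethylene against 6.93 FPKM in air, and *RGL1* and *RGL3* were also down in *cbp20* shoots. Of 18 brassinosteroid genes 5 were up and 2 down regulated. The 2 down calls were shared with *cbp20* shoots and lie in synthesis, with *DWF4* at 13.9 FPKM in ethylene against 52.0 FPKM in air and *BR6OX1* at 5.99 FPKM in ethylene against 10.7 FPKM in air. None of the 5 up calls was shared. *BES1*, a transcription factor gene of the pathway, had 155 FPKM in ethylene against 71.5 FPKM in air in Col-0 shoots and 128 FPKM in ethylene against 92.2 FPKM in air in *cbp20* shoots. Of 8 type-A cytokinin response regulator genes 2 were down and 1 up regulated, all 3 of them the same way in *cbp20* shoots. GASA peptides are gibberellin-regulated, and AT5G14920 of this family had 707 FPKM in ethylene against 151 FPKM in air, whereas *GASA1* had 598 FPKM in ethylene against 1158 FPKM in air.

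Genes of abscisic acid, cold and dehydration were down regulated in 11 of 16 cases and up regulated in none, with a median log2 ratio of -1.21. Of the 11, 5 were also down in *cbp20* shoots. Abscisic acid is the hormone of water shortage. *NCED3*, which encodes the rate-limiting enzyme of its stress-induced synthesis, had 2.93 FPKM in ethylene against 14.8 FPKM in air, and *HAI1*, a phosphatase gene induced by it, had 3.46 FPKM in ethylene against 33.7 FPKM in air. Of the protective proteins, *KIN1* and *KIN2*, which share a joined locus, had 127 FPKM in ethylene against 799 FPKM in air in Col-0 shoots and 48.5 FPKM in ethylene against 180.0 FPKM in air in *cbp20* shoots. *LTI65* had 33.4 FPKM in ethylene against 115 FPKM in air, and *LTI78* (also known as RD29A) had 128 FPKM in ethylene against 225 FPKM in air. Of 9 loci of protective proteins used, 7 were down regulated in Col-0 shoots, and 2 of the 7 were also down in *cbp20* shoots. In Col-0 roots 5 of 14 genes of this list were up regulated and 3 down regulated, and *LTI30* had 90.4 FPKM in ethylene and 169.6 FPKM in air in shoots and 655 FPKM in ethylene and 325 FPKM in air in roots.

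Touch and early stress genes, which respond within minutes to handling or cold, gave the lowest list median, at -1.87 on the log2 scale. Of 10 genes 8 were down and none up regulated, and 6 of the 8 were also down in *cbp20* shoots. *DREB2A*, a transcription factor gene of heat and drought, had 3.22 FPKM in ethylene against 49.7 FPKM in air. *CBF2*, which encodes a regulator of the cold response, had 0.892 FPKM in ethylene against 17.6 FPKM in air. *DREB1A* (also known as CBF3) was listed at 0 in ethylene and had 9.42 FPKM in air. Of the zinc finger genes, *ZAT6* had 2.39 FPKM in ethylene against 17.4 FPKM in air. *RHL41* had 10.1 FPKM in ethylene against 44.9 FPKM in air, and *STZ* had 11.2 FPKM in ethylene against 33.4 FPKM in air. These zinc finger genes, *CBF2* and *DREB1A* were down regulated in Col-0 roots too. *TCH3*, a calmodulin-like gene at a joined locus, had 529 FPKM in ethylene and 531 FPKM in air. *STZ* was under the fold in *cbp20* shoots, with 9.16 FPKM in ethylene and 8.21 FPKM in air.

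The circadian clock list had 8 of 12 genes down regulated and none up, with a median log2 ratio of -1.31. Under the processing alternatives this median lay between -1.31 and -0.64. In *cbp20* shoots 4 of 11 genes of the list were down regulated, with a median of -0.16. All 5 morning genes were down regulated, 4 of them also in *cbp20* shoots. *CCA1* had 3.30 FPKM in ethylene and 17.8 FPKM in air, and in *cbp20* shoots 11.1 FPKM in ethylene and 31.4 FPKM in air. *LHY*, its partner, had 4.29 FPKM in ethylene and 17.4 FPKM in air, and in *cbp20* shoots 13.8 FPKM in ethylene and 54.2 FPKM in air. Of the 7 evening genes 3 were down regulated and none of these in *cbp20* shoots, with *ELF4* at 25.1 FPKM in ethylene against 54.3 FPKM in air. *TOC1* had 40.3 FPKM in ethylene and 33.8 FPKM in air. The sources used here do not give the hour of harvest of each group, and time of day was not tested.

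Promoter windows are shown for 3 of these down regulated genes, which were picked because they hold short motifs known from these responses. Searched were the G-box CACGTG, the evening element AAATATCT, and the DRE core as ACCGAC or GCCGAC, on both strands, and capitals mark matches. The assembly and strand are given as above.
*CBF2*, chr4:13016236-13016485, - strand: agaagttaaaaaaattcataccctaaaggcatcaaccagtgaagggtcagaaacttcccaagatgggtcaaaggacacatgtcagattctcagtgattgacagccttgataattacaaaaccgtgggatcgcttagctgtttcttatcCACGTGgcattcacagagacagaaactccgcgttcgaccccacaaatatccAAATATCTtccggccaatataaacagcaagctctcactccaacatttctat
*LTI78*, chr5:21240467-21240716, + strand: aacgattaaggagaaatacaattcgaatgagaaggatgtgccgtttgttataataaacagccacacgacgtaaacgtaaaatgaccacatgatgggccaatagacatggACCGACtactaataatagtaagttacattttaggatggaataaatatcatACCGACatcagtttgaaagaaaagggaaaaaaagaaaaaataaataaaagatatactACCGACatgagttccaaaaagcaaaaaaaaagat
*LHY*, chr1:37872-38121, - strand: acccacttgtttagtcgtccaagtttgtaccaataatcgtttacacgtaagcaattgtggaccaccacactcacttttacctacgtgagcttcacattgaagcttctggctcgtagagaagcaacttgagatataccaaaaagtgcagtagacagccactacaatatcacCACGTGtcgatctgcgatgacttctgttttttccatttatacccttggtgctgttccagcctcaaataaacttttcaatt
Of 26 windows read for down regulated genes of the 3 lists, 6 held a G-box, 8 an evening element and 7 a DRE core, and 8 held none of them. Of all genes scanned 7.60% held a G-box, 811 of 16236 an evening element and 8.11% a DRE core in this window. *CBF2* held a G-box and an evening element, *LTI78* held 3 DRE cores, and *LHY* held a G-box. A G-box was found in 250 bases for 11.8% of 1822 genes down regulated in both shoot tables, 5.54% of 939 genes up regulated in both and 7.60% of all 16236 genes scanned. In 1000 bases the G-box share was 22.0% of the down regulated genes, 14.0% of the up regulated genes and 16.3% of all genes. The evening element in 1000 bases was held by 16.4% of the down regulated genes, 16.5% of the up regulated genes and 15.4% of all genes, and the DRE core by 23.1% of the down regulated genes, 24.2% of the up regulated genes and 23.8% of all genes. The GC content of the 1000 bases was 31.5% in the down regulated, 32.6% in the up regulated and 32.9% in all genes, and its part in the shares was not tested.

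Genes of 2 classes of protective metabolites were down regulated. Flavonoids are phenolic pigments and sunscreens, and 10 of 15 genes of their pathway were down and none up regulated, with a median log2 ratio of -1.05. Of the 10, 8 were also down in *cbp20* shoots. *F3H* had 2.37 FPKM in ethylene against 25.3 FPKM in air, *FLS1* had 6.04 FPKM in ethylene against 13.6 FPKM in air, and *TT4*, which encodes chalcone synthase, had 38.1 FPKM in ethylene against 73.4 FPKM in air. The entry enzymes of phenylpropanoid metabolism moved less, with *C4H* at 171 FPKM in ethylene and 232 FPKM in air. Indole glucosinolates are defence compounds made from tryptophan. Of 9 genes 7 were down regulated, all 7 also in *cbp20* shoots, and none was up regulated. *MYB34*, the regulator gene, had 24.5 FPKM in ethylene against 106 FPKM in air, and the enzyme gene *CYP79B3* had 23.7 FPKM in ethylene against 65.2 FPKM in air. *CYP81F4*, which acts on the indole ring, had 27.5 FPKM in ethylene against 92.2 FPKM in air. The summed level of the 9 genes was 304 FPKM in ethylene and 633 FPKM in air. In Col-0 roots 2 of these 9 genes were down and 2 up regulated.

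Larger enzyme families leaned the same way. Of 114 cytochrome P450 genes used, 50 were down and 17 up regulated, and 37 and 8 of these had the same call in *cbp20* shoots. *CYP705A5* had 24.3 FPKM in ethylene against 178 FPKM in air, and *CYP71A16* had 2.08 FPKM in ethylene against 32.4 FPKM in air, whereas *CYP96A5* had 53.5 FPKM in ethylene against 10.8 FPKM in air. Of 90 UDP-glycosyltransferase genes 41 were down and 10 up regulated, 20 and 5 also in *cbp20* shoots. AT3G46700 of this family had 5.38 FPKM in ethylene against 47.1 FPKM in air. Of 82 genes of the major facilitator superfamily, which carry sugars, nitrate, peptides and other small molecules, 28 were down and 6 up regulated. The same call in *cbp20* shoots was found for 18 of the 28 and 1 of the 6. AT3G21670 had 0.728 FPKM in ethylene against 15.1 FPKM in air. UMAMIT genes encode transporters, several of them known to export amino acids, and 10 of 29 were down regulated, all 10 also in *cbp20* shoots, with *UMAMIT11* at 10.4 FPKM in ethylene against 27.3 FPKM in air. *UMAMIT34* was up regulated in both shoot tables, with 15.5 FPKM in ethylene against 4.07 FPKM in air.

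Jasmonate is the hormone of wounding, and 4 of its 11 genes were down and 2 up regulated, all 6 with the same call in *cbp20* shoots. *AOS*, an early enzyme gene, had 10.2 FPKM in ethylene against 25.3 FPKM in air, and *ST2A*, a sulfotransferase gene that acts on hydroxylated jasmonate, had 252 FPKM in ethylene against 85.5 FPKM in air. The JAZ repressor genes had 4 down regulated of 9, 1 of them in both shoot tables. The defensin genes *PDF1.2* and *PDF1.2b*, known as targets of joint ethylene and jasmonate signalling in leaves, were listed at 0 in ethylene and in air. *HCHIB*, a basic chitinase gene, had 42.0 FPKM in ethylene against 86.6 FPKM in air and was under the fold in *cbp20* shoots.

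**Figure D4:**
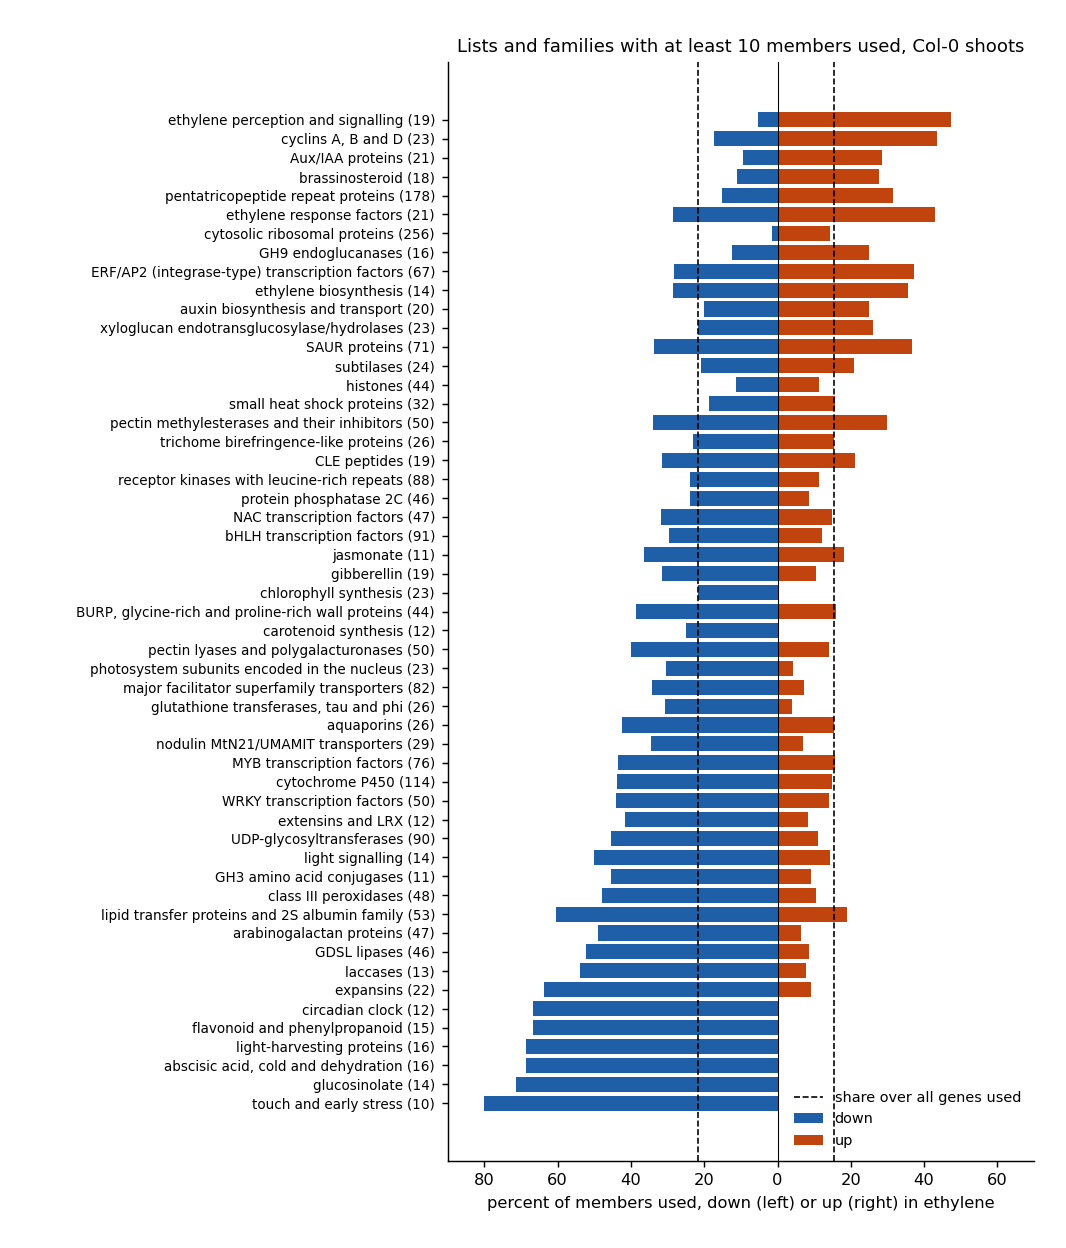
Percent of the members used of each list and family that were down (left) or up (right) regulated by ethylene in Col-0 shoots. Over all 17825 genes used the shares were 21.7% down and 15.4% up.

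**Figure D5:**
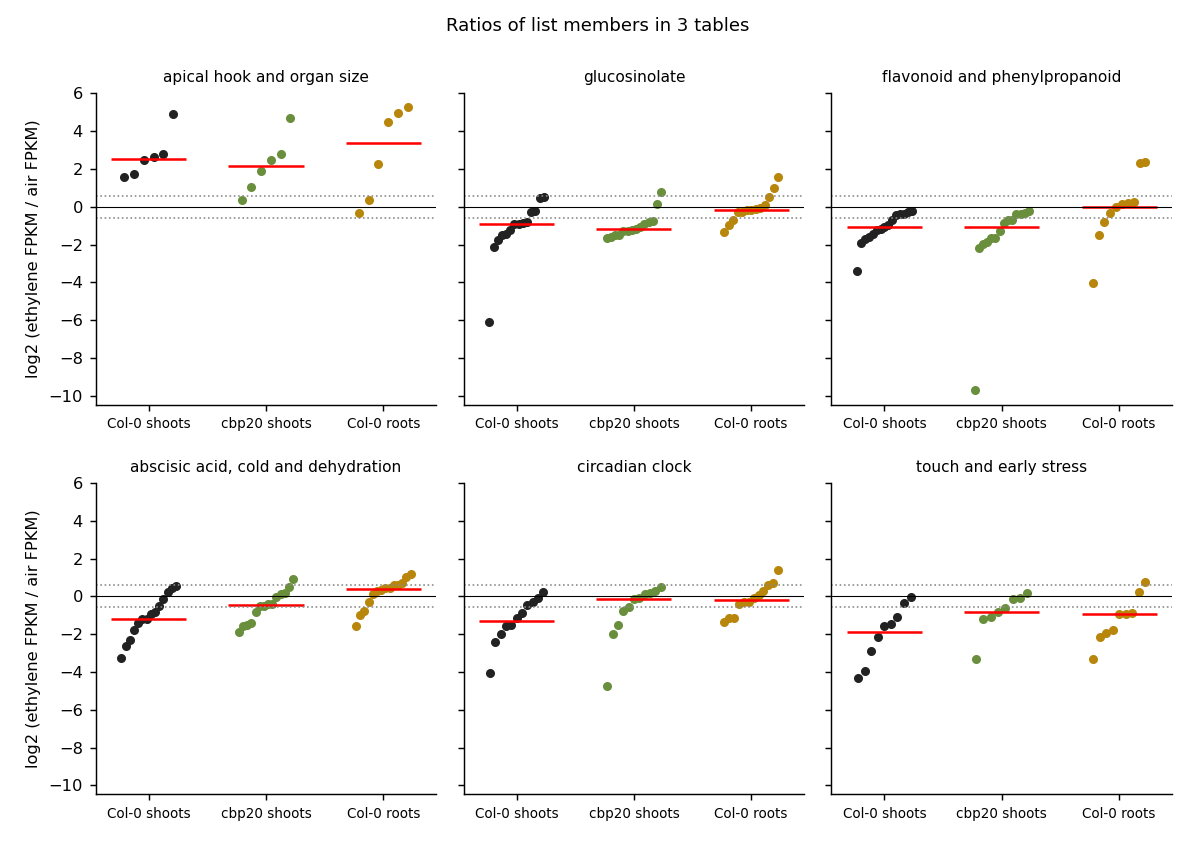
Log2 ratio of ethylene to air of single members of several lists in Col-0 shoots, *cbp20* shoots and Col-0 roots, each point a gene and each red line the list's median. Members with a group at 0 are not drawn but count in the median. The medians of the apical hook and organ size list were 2.55 in Col-0 shoots, 2.19 in *cbp20* shoots and 3.39 in Col-0 roots. In Col-0 roots the median was 0.35 for the hook genes and 4.94 for the organ size genes of this list.

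Transcription factor families differed in their direction. Of 67 integrase-type ERF/AP2 genes 25 were up and 19 down regulated, 14 and 10 also in *cbp20* shoots. Of 76 MYB genes 12 were up and 33 down, of 91 bHLH genes 11 were up and 27 down, and of 50 WRKY genes 7 were up and 22 down. Of the down regulated genes, 20 MYB, 19 bHLH and 11 WRKY genes had the same call in *cbp20* shoots. Of the up regulated genes, 4 MYB, 6 bHLH and 1 WRKY gene had the same call there. *MYB10* went up, with 184 FPKM in ethylene against 21.6 FPKM in air, and lay at 0.562 FPKM in ethylene against 124 FPKM in air in Col-0 roots, where it was down regulated. *MYB10* did not meet the rule for genes flagged as opposite between tissues below. That rule asks, among other limits, for a 2-fold change the same way in both genotypes of each tissue. *HB52*, a homeobox gene, had 814 FPKM in ethylene against 139 FPKM in air, and *RL3*, a small MYB-related gene, had 59.0 FPKM in ethylene against 3.50 FPKM in air. *MYB31* was up regulated in both shoot tables and in roots, with 28.0 FPKM in ethylene against 9.78 FPKM in air in Col-0 shoots. Of 47 NAC genes 7 were up and 15 down regulated, of which 1 and 7 also in *cbp20* shoots. *NAC3* (AT3G29035) was the up regulated member shared with *cbp20* shoots, with 55.1 FPKM in ethylene against 26.0 FPKM in air, and *NAC080* had 7.82 FPKM in ethylene against 30.1 FPKM in air.

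By the rule for the largest ratios (loci of 1 gene, at least 10 FPKM in the higher group and the same call in *cbp20* shoots), 572 up and 1068 down regulated genes were ranked. AT4G03140 and *MIR158a* came first among the up regulated genes. AT4G03140, an oxidoreductase-like gene, had 13.6 FPKM in ethylene and 5.24e-05 FPKM in air in Col-0 shoots and 10.5 FPKM in ethylene and 6.03 FPKM in air in *cbp20* shoots. *MIR158a*, a microRNA gene, had 258 FPKM in ethylene and 0.232 FPKM in air in Col-0 shoots and 35.1 FPKM in ethylene and 18.1 FPKM in air in *cbp20* shoots. The air values of both genes in Col-0 shoots were close to 0, far under those in *cbp20* shoots. AT2G43140, a bHLH gene, had 16.0 FPKM in ethylene against 0.0459 FPKM in air in Col-0 shoots and 25.5 FPKM in ethylene against 0.630 FPKM in air in *cbp20* shoots. AT2G39980, an acyltransferase gene, had 252 FPKM in ethylene against 12.0 FPKM in air in Col-0 shoots and 283 FPKM in ethylene against 19.5 FPKM in air in *cbp20* shoots, where both groups lay near those of Col-0. *CYP718* had 22.4 FPKM in ethylene against 0.782 FPKM in air. AT5G25800, which encodes a ribonuclease-like protein, had 241 FPKM in ethylene against 2.69 FPKM in air in Col-0 shoots and 19.8 FPKM in ethylene against 2.85 FPKM in air in *cbp20* shoots, so its ethylene value lay far above that in *cbp20* shoots. AT3G51400 had 25.1 FPKM in ethylene against 0.393 FPKM in air, and *ORS1*, *EXPA12* and *RL3* complete the 10. With at least 1 FPKM in both groups, the neighbouring peptide genes *CLE6* and *CLE5* came among the leading 10. *CLE6* had 61.9 FPKM in ethylene against 4.50 FPKM in air, and *CLE5* had 62.4 FPKM in ethylene against 4.64 FPKM in air. Both were up regulated in *cbp20* shoots, which the rule requires, and they were also up regulated in Col-0 roots.

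Of the largest falls by the same rule, AT5G64395, an uncharacterized gene on chromosome 5, 25743344 to 25750602 in TAIR10, had 4.40 FPKM in ethylene against 401 FPKM in air in Col-0 shoots and 4.50 FPKM in ethylene against 149 FPKM in air in *cbp20* shoots. AT1G63420 had 3.37 FPKM in ethylene against 324 FPKM in air in Col-0 shoots but 4.45 FPKM in ethylene against 7.03 FPKM in air in *cbp20* shoots, so its air value stood apart. AT3G50400, a GDSL lipase gene, had 0.0567 FPKM in ethylene against 19.8 FPKM in air. *MDHAR* (AT3G09940), whose product restores ascorbate, had 0.121 FPKM in ethylene against 13.4 FPKM in air. In *cbp20* shoots *MDHAR* had 3.56 FPKM in ethylene against 6.86 FPKM in air. AT4G29930, a bHLH gene, had 0.917 FPKM in ethylene against 39.0 FPKM in air in Col-0 shoots. The others were AT1G11055, AT5G37690, AT5G47980, AT1G10640 and AT2G44290, with between 10.2 and 38.4 FPKM in air and under 1 FPKM in ethylene. AT1G11055 ranked first, with 1.31e-06 FPKM in ethylene and 20.2 FPKM in air. This ethylene value lay just above the 1e-06 FPKM under which values were read as 0. In *cbp20* shoots AT1G11055 had 13.2 FPKM in ethylene and 22.4 FPKM in air. With at least 1 FPKM in both groups, *PELPK2*, a proline-rich wall protein gene, had 2.77 FPKM in ethylene against 96.4 FPKM in air, and *CYP71A16* was among the same 10.

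Among 265 genes with at least 500 FPKM in either group, 35 were up and 71 down regulated, and 28 and 50 of these had the same call in *cbp20* shoots. Beside *EFE* and *XTH15*, the abundant up regulated genes included *FDH*, a formate dehydrogenase gene of mitochondria, with 1334 FPKM in ethylene against 347 FPKM in air. *CYSC1*, whose product detoxifies the cyanide that ACC oxidases release, had 975 FPKM in ethylene against 287 FPKM in air. *AZI1* of the lipid transfer family had 1219 FPKM in ethylene against 364 FPKM in air. The abundant down regulated genes included *MSRB9*, a methionine sulfoxide reductase gene, with 65.8 FPKM in ethylene against 618 FPKM in air, *PRP2*, a proline-rich wall protein gene, with 364 FPKM in ethylene against 862 FPKM in air, and *PCAP1*, a cation-binding protein gene of the plasma membrane, with 1072 FPKM in ethylene against 1844 FPKM in air. *PYK10*, the main glucosidase gene of ER bodies, had 5499.8 FPKM in ethylene against 8894 FPKM in air in Col-0 shoots and 4931 FPKM in ethylene against 6998 FPKM in air in *cbp20* shoots, where it was under the fold. The shares up and down of these 265 genes were 13.2% and 26.8%, beside 15.4% and 21.7% over all genes used.

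Col-0 roots shared fewer calls with Col-0 shoots than *cbp20* shoots did, though the differences between tables were not tested. Of the up regulated genes of Col-0 shoots, 712 (26.0%) were up regulated in Col-0 roots, which is 25.8% of the 2759 root genes. Of the down regulated genes, 1130 (29.2%) were down in roots, or 42.0% of the 2688 root genes. Opposite calls in roots were found for 297 of the up and 414 of the down regulated genes of shoots. Calls of the same kind in all 4 tables, *cbp20* roots included, were found for 277 up and 492 down regulated genes. Of the lists above, the organ size genes were up regulated in both tissues, and 12 of the 16 antenna genes were down regulated in roots. Extensin and LRX wall protein genes differed in their counts, with 5 down and 1 up of 12 in shoots and 8 up and none down of 12 in roots. Of the 5 down calls 1 was shared with *cbp20* shoots, and the up call was not. Of the 26 members 9 were left out for repeated names.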

How the data were processed

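RNA was sequenced from 3-day-old etiolated seedlings, with 2 libraries in each of 8 groups of genotype, tissue and treatment. The study's methods and the submitters' processing notes name strand-specific poly(A) libraries, TopHat2 2.0.9 for alignment to TAIR10 and Cuffdiff 2.2.1 for the comparison of ethylene with air. In the 4 deposited tables the authors give 1 FPKM value per group and locus, pooled over the 2 libraries and normalized separately in each table. Library sizes (not given in the sources used here) and hence the precision of a value are unknown. The tables also hold the authors' fold change and p-value for each locus, which were not used. The status column served as a filter.

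Ratios of ethylene to air were computed from the deposited FPKM, and FPKM under 1e-06 was read as 0. The minima of 1.5-fold and 1 FPKM follow the study's methods. Since each group is 1 pooled value, no test across genes was made and no error can be given. Loci that join several genes (1059 of 17825) were kept, with their reads summed. Names repeated at several loci and loci without a name were left out. Of 19098 gene names 18932 were found in the RefSeq annotation of TAIR10.1, which gave symbols, products and promoter windows, while coordinates of loci are those of the authors' tables.

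The genes named as largest changes are the 10 largest ratios in each direction among loci of 1 gene with at least 10 FPKM in the higher group, more than 0 FPKM in both groups and the same call in *cbp20* shoots. Within a list up to 5 members with the largest ratios in each direction could be named, and further members for their role. Genes were set apart where 1 group held 100 FPKM or more and lay 100 times or more above the median of the 8 groups. The lists, families and members were chosen with earlier results of these data known, and families were redefined by product names after the tables had been read. Lists and families with at least 5 members used were compared by their median. Python 3.11.15, pandas 2.3.3, numpy 2.4.6 and matplotlib 3.10.9 were used, and the computation of calls was tested on simulated data.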

Additional observations from a re-analysis of the deposited data

Results flagged for a closer look

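*CTF7*, which encodes an acetyltransferase of sister chromatid cohesion, had opposite calls in shoots and roots, in both genotypes. In Col-0 shoots it had 4.06 FPKM in ethylene and 28.1 FPKM in air, a log2 ratio of -2.79, and in *cbp20* shoots 3.56 FPKM in ethylene and 19.4 FPKM in air, a log2 ratio of -2.44. In Col-0 roots it had 26.1 FPKM in ethylene and 11.5 FPKM in air, a log2 ratio of 1.19, and in *cbp20* roots 16.3 FPKM in ethylene and 3.03 FPKM in air, a log2 ratio of 2.43. The difference between tissues was not tested.

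Loci without a gene name were outside the comparisons. Of 592 such loci with the status OK and at least 1 FPKM, 237 were up and 318 down regulated in Col-0 shoots, and 26 were up and 38 down regulated in both shoot genotypes.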

How the results depend on the processing

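The 2743 up regulated and 3873 down regulated genes of Col-0 shoots and the 2983 calls shared with *cbp20* shoots moved by over 1.5 times under the alternatives given next. With at least a 2-fold change the counts were 1436 up regulated, 2379 down regulated and 1452 shared. With at least 10 FPKM in either group they were 1303, 1877 and 1569. Counting only genes called the same way in *cbp20* shoots left 1019 up regulated and 1964 down regulated genes. Under the other alternatives the counts stayed within 1.5 times, with 2078 to 3381 up regulated and 2845 to 4547 down regulated genes. These were 1 FPKM in both groups, no minimum, log2 of FPKM + 1, centring on the median, joined loci left out, and, chosen after seeing the data, repeated names kept and far-out values left out. Of 64 lists and families 13 had a median past 1.5-fold, and 11 to 15 under the alternatives run. The 2-fold and shared-call alternatives do not apply to a median and were not run for lists. The 20 genes named for the largest changes kept direction and call with log2 of FPKM + 1 and with centring. They were picked for large ratios, which these 2 settings could not bring under the fold, so this does not show how stable they are. No paired analysis was possible because each group is 1 pooled value, and leaving out a library was not possible for the same reason. Depth per library is unknown, so the precision of low values cannot be given.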

Other observations

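Genes of the cytosolic ribosome moved by little, and few of them were down regulated in Col-0 shoots. Of 256 genes used, 37 (14.5%) were up and 4 (1.56%) down regulated in Col-0 shoots, beside 15.4% and 21.7% over all genes used. The up share thus lay near that of all genes. The median log2 ratio was 0.32, and the summed level was 44214 FPKM in ethylene and 35924 FPKM in air. In *cbp20* shoots 51 were up and 6 down regulated, with a median of 0.39, and in Col-0 roots 6 were up and 28 down regulated of 257, with a median of -0.27. Of the 37 up regulated genes 15 were called in both shoot tables. AT5G60670, of the L11 family, is an example, with 208 FPKM in ethylene against 94.9 FPKM in air in Col-0 shoots and 66.0 FPKM in ethylene against 109 FPKM in air in Col-0 roots. The centring shifts all ratios by 0.01 on the log2 scale, so these directions do not turn with it.

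Cyclin genes had 10 up and 4 down regulated of 23 in Col-0 shoots, but 1 of the 10 was called in *cbp20* shoots. *CYCB2;2* had 5.61 FPKM in ethylene against 1.36 FPKM in air in Col-0 shoots and 3.10 FPKM in ethylene against 3.54 FPKM in air in *cbp20* shoots. *CYCD1;1*, a gene of entry into the cell cycle, had 14.3 FPKM in ethylene against 34.7 FPKM in air in Col-0 shoots. Several of these genes lie near 1 FPKM, where calls were often not shared between the genotypes. Of 178 pentatricopeptide repeat genes, whose products process organelle RNA, 56 were up and 27 down regulated, 12 and 7 of them in both shoot tables.

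In 29 genes 1 group stood at least 100 FPKM and at least 100 times above the median of the 8 groups, 13 of them in ethylene and 16 in air, and 13 of them over 1000 FPKM. AT3G43840 had 108196 FPKM in ethylene and 0.938 FPKM in air in Col-0 shoots. Of the 29, 1 was past the fold the same way in *cbp20* shoots. These genes held 24.7% of the summed FPKM of the genes used in ethylene and 28.5% in air. Unnamed loci held 78.0% of all FPKM of the table in ethylene and 84.0% in air.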
